A study of Mus musculus with 9 samples.

Results

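The cytosolic ribosomal protein (RP) genes encode the proteins of the 60S and 40S ribosomal subunits. The array probes whose gene symbol had the form Rpl, Rps or Rplp followed by a number were taken as members. After the number at most a single letter (a, l, x or y) and a single digit could follow. The ribosomal S6 kinase genes (Rps6k) were left out. This gave 132 of the 41174 probes on the array, for 79 of the 27962 genes named there. Of these genes, 48 belonged to the large subunit (77 probes) and 31 to the small subunit (55 probes). The rule itself reads names and no measured value.

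RNA was measured in mammary gland number 4 on lactation day 2, with 1 array for each dam. The dams were labelled as C57BL/7 in background, which is not the strain name used in the study's text. They were either wild type (WT, n = 4) or hNAG-1 overexpressing transgenic mice (n = 5), which carry human NAG-1, a secreted protein of the TGF-beta superfamily. The study's methods describe the transgene as expressed in all tissues and name a main line, with a further line combined with it in some experiments. They do not say which line was on the arrays. The methods give the fertility study, after litter number 4, as the source of the glands for PCR, and refer to that section for the array RNA. The labels give each array's slide: WT 1 lay on slide 1, hNAG-1 1 to hNAG-1 4 on slide 2, and WT 2 to WT 4 with hNAG-1 5 on slide 3.

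Ribosomes hold a single copy of most RPs, and cells that secrete much protein need many ribosomes. RP mRNAs are abundant and short, and most begin with a run of pyrimidines, the 5′ terminal oligopyrimidine tract, through which mTOR signalling controls their translation together. Lactating mammary epithelium makes casein and whey proteins at a high rate. RP genes are also common reference genes, so the same probes were used to examine how the arrays were put on a common scale.

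Probe sequences are shown first for 3 RP genes in which other probes of the same gene gave different results. They are those with the lowest probes among RP probes well above background on all arrays. The bases are those of the 60-base array probes, given 5′ to 3′ in the sense of the mRNA, and positions are those of the array design on mouse build mm7. For Rps21, a small subunit protein, capitals mark the AATAAA letters of a polyadenylation signal in the 30 bases that the second and the last probe both hold. These 2 probes overlap by 42 bases.

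Rps21 A_51_P489959 (chr2:180758913-180759144, across an intron): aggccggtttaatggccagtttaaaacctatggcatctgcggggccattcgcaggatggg
Rps21 A_52_P678800 (chr2:180759274-180759333): gaagaaatcgggaatttgttacaAATAAAa
Rps21 A_52_P740562 (chr2:180759292-180759349): gaagaaatcgggaatttgttacaAATAAAa

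For Rpl7a, a large subunit protein, capitals mark the 14 bases that a pair of neighbouring probes share. The last of them is printed for its first 30 bases.

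Rpl7a A_51_P359862 (chr2:26918784-26918843): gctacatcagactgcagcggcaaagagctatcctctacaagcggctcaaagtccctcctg
Rpl7a A_52_P436206 (chr2:26920485-26920544): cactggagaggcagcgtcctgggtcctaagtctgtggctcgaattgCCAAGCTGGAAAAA
Rpl7a A_52_P548790 (chr2:26920531-26920589): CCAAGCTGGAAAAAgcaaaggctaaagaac

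For Rps3a, a small subunit protein that RefSeq now lists as Rps3a1, both probes are printed whole, with no letters marked. The gene lies on the minus strand, so that A_51_P292357 is the upstream probe.

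Rps3a A_51_P292357 (chr3:86250956-86251387, across an intron): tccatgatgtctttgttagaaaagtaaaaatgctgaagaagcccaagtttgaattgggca
Rps3a A_52_P49886 (chr3:86250797-86250821, a stretch shorter than the probe): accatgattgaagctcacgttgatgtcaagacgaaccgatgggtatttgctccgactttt

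RP probes were among the brightest on the array. Of the 132 probes, 106 lay in the brightest 10% of all probes and 41 were among the 100 brightest, although brightness depends on the probe as well as on the RNA. On the 9 arrays the RP probes held 11.2% to 14.0% of the summed intensity. The scanner called 124 of them (93.9%, for 78 genes) well above background on all 9 arrays, against 56.1% of all probes. None was saturated on any array. The scanner read 93 RP probes from its low-gain scan on every array and scaled them up, which it did for 1.79% of all probes.

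The deposited intensities carry no scaling between arrays, so the RP level was first described as deposited. The median RP intensity was 80421, 109380, 93401 and 85860 on WT 1 to WT 4. It was 70071, 74294, 86435, 70777 and 106368 on hNAG-1 1 to hNAG-1 5. The 2 highest arrays, WT 2 and hNAG-1 5, came from different genotypes and the same slide, and the genotypes overlapped. The mean over WT arrays was 92266 ± 12590 (SD, n = 4), and that over hNAG-1 arrays was 81589 ± 15332 (SD, n = 5).

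Each array was then scaled to the 75th percentile of its own probes, which ranged 2.23-fold over the arrays (509 on hNAG-1 1 to 1133 on WT 2). After scaling, the median RP intensity was 107057, 73424, 87441 and 81465 on WT 1 to WT 4, and 104767, 70506, 77064, 84797 and 88411 on hNAG-1 1 to hNAG-1 5. WT 1 and hNAG-1 1, the arrays with the lowest 75th percentile, became the highest for RP, and the genotypes again overlapped. The WT mean became 87347 ± 14341 (SD, n = 4), and the hNAG-1 mean became 85109 ± 12994 (SD, n = 5).

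Scaling brought the genotypes together more than it brought the arrays together. The array medians of RP on the log2 scale differed by -0.19 between hNAG-1 and WT as deposited and by -0.04 after scaling. Their SD over the 9 arrays went from 0.24 to 0.21, and their range from 1.56-fold to 1.52-fold. In the same arrays the SD of the 75th percentile itself was 0.36 and that of the median of all probes 0.44, so the RP median varied less than either.

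**Figure D1:**
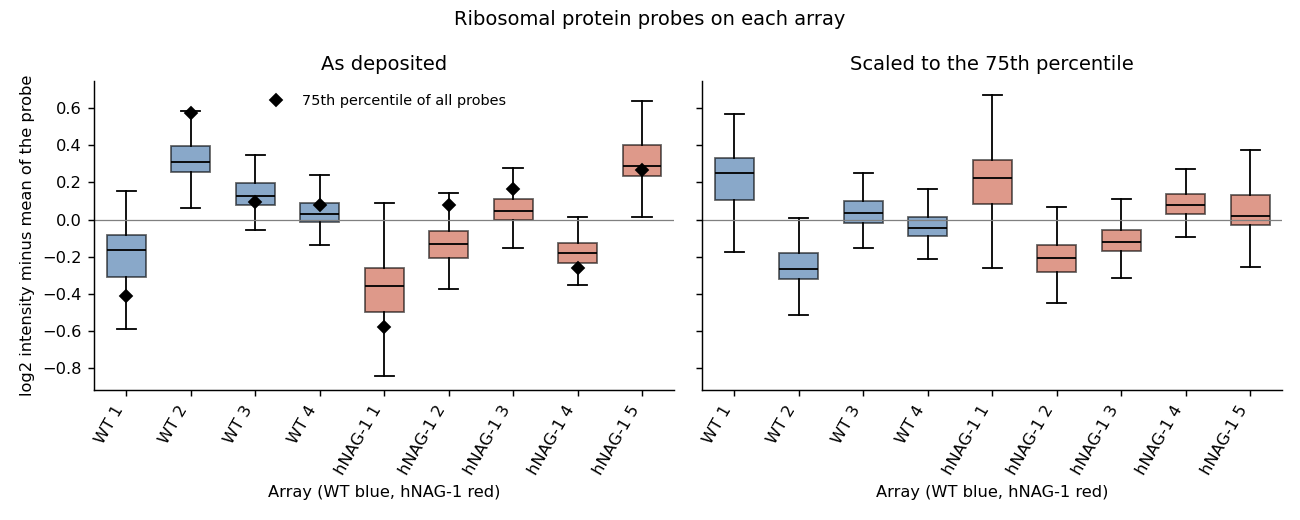
Boxes show the 124 RP probes well above background on all arrays, as log2 intensity minus the mean of each probe, with the median line, the middle 50% as the box and whiskers to the farthest value within 1.5 box lengths, as deposited (left) and after scaling (right). Diamonds show the 75th percentile of all probes, which ranged 2.23-fold, and WT 1 and hNAG-1 1 move from below 0 to the highest boxes on scaling.

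The effect of scaling depended on how bright an RP probe was. Rps6, the small subunit protein phosphorylated by S6 kinase, is an example of a probe that scaling evened out. Its A_51_P344734 probe read 60428, 103912, 84426 and 77727 as deposited in WT 1 to WT 4, and 49663, 74112, 79438, 70740 and 94096 in hNAG-1 1 to hNAG-1 5. After scaling it read 80443, 69753, 79038 and 73749, and 74255, 70333, 70826, 84754 and 78210. The values drew close together on all arrays, and the log2 SD over the arrays fell from 0.32 to 0.10.

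Rplp1, an acidic protein of the ribosomal stalk that recruits translation factors, went the other way. Its probe read 451966, 521177, 520488 and 484085 as deposited in WT, and 401887, 430184, 446861, 421888 and 497650 in hNAG-1. After scaling it read 601664, 349853, 487273 and 459307, and 600889, 408250, 398414, 505462 and 413635. WT 1 and hNAG-1 1 stood highest after scaling, and the log2 SD rose from 0.14 to 0.27.

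Over the 124 RP probes well above background on all arrays, the spread became smaller after scaling in 81 (65.3%). The same held for 88.2% of the 23095 probes of the whole array that were well above background on all arrays. Among probes read from the low-gain scan on all arrays the shares lay closer, at 58.1% of 93 RP probes and 62.1% of all 739. Among the 31 dimmest of these RP probes the spread became smaller in 27, with a median SD of 0.36 before and 0.18 after. Among the 31 brightest it became smaller in 6, with a median SD of 0.19 before and 0.23 after. Across the 124 probes, which share the same 9 arrays, the change in SD rose with brightness (Spearman's rho 0.65, a description). Whether the scanner's gain setting, the hybridization or the RNA had a part in this was not tested.

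**Figure D2:**
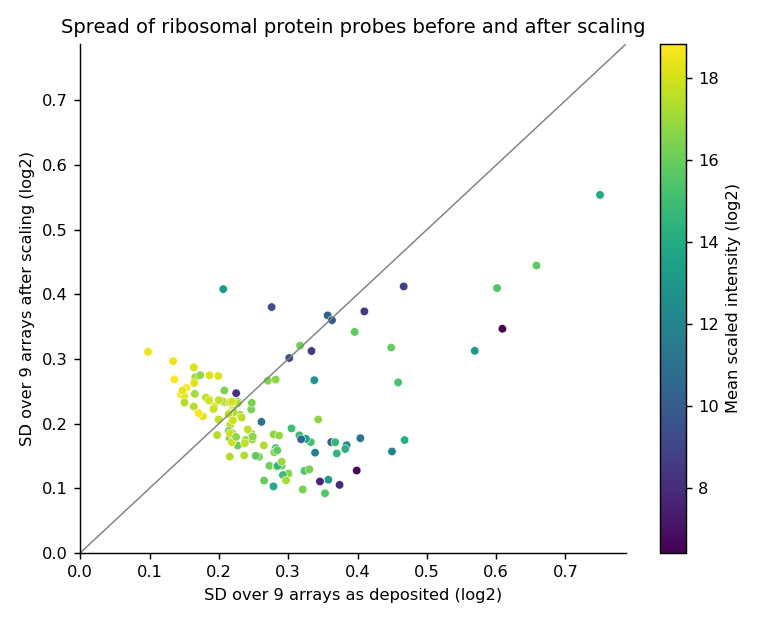
Each point is 1 of the 124 RP probes, placed by its SD over the 9 arrays in log2 units as deposited (x axis) and after scaling (y axis) and colored by mean brightness, with the diagonal marking equal spread. The brightest probes mostly lie above the diagonal (6 of the 31 brightest lie below it), and 27 of the 31 dimmest lie below it.

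Between genotypes, the RP genes as a group differed little after scaling. The median log2 fold change of the 132 probes (hNAG-1 minus WT) was 0.01, with quartiles of -0.05 and 0.07, and the median of all probes was -0.01. It was above 0 in 71 RP probes and below 0 in 61. Among the 124 probes well above background on all arrays, 92.7% lay within 0.2 of 0 on the log2 scale, against 61.5% of all probes that met the same condition. RP probes were brighter than most of those, and no share matched for brightness was computed. Among probes read from the low-gain scan on all arrays, the median SD after scaling was 0.21 for RP and 0.23 for all. Over all probes well above background on all arrays it was 0.28. The 73 large subunit probes and the 51 small subunit probes had the same median, 0.01. Without scaling the RP median was -0.14 and that of all probes -0.16, and 121 of 132 RP probes were below 0.

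No RP probe passed an adjusted p of 0.05 (limma with Benjamini-Hochberg adjustment over all probes, lowest adjusted p = 0.654), where 0.00243% of all probes did. At an unadjusted p under 0.05, limma called 1 of 132 RP probes (0.758%), against 5.62% of all probes. That probe was lower in hNAG-1, a direction in which 4.42% of all probes were called, and no RP probe was called higher, against 1.2%. The study's own thresholds, which add a minimum of 1.5-fold and of 65 intensity units, left the same single probe and 2.24% of all probes. No RP probe had genotypes that did not overlap, whereas 0.695% of all probes were higher and 0.69% lower without overlap. The median 95% confidence interval of a well measured RP probe reached 0.39 to either side of its log2 fold change, and for 107 of 124 the interval lay inside 1.5-fold in both directions.

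**Figure D3:**
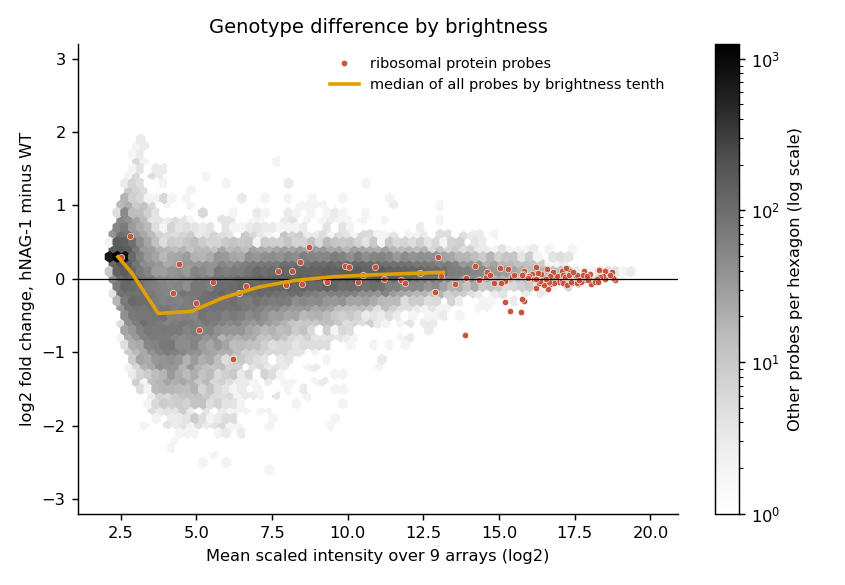
The log2 fold change (hNAG-1 minus WT, y axis) is plotted against mean scaled log2 intensity over the 9 arrays (x axis) for the 132 RP probes (red) and all other probes (grey, shaded by number on a log scale), with a line for the median of all probes in 10 bins of brightness. RP probes gather at the bright end close to 0, with a median of 0.02 for the 106 in the brightest bin, where all probes had a median of 0.09.

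The slide was not balanced between genotypes. With slide as a fixed block, the comparison rests on slide 3 alone, where hNAG-1 5 is the only hNAG-1 array. Genotype and this dam can then not be told apart, and hNAG-1 5 is assumed to vary like the other arrays. In that fit the RP median became 0.13 and that of all probes 0.19, whereas among probes well above background on all arrays the medians were 0.13 and 0.09. With this block 113 of 132 RP probes were above 0. Limma called 2 RP probes at an unadjusted p under 0.05, against 7.58% of all probes, and both were higher, as were 6.87% of all probes. Those were Rpl35a A_52_P369054 and Rps2 A_52_P182478, which were well above background on 1 and 0 arrays.

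The called probe was Rps21 A_52_P678800, at the 3′ end of the gene. Its scaled intensity was 16219, 15455, 26561 and 25030 in WT 1 to WT 4, and 10029, 9458, 11066, 11828 and 19154 in hNAG-1 1 to hNAG-1 5. The 4 arrays of slide 2 were the lowest of the 9, and hNAG-1 5 on slide 3 lay within the WT range. WT averaged 20816 ± 5792 (SD, n = 4) and the transgenic dams averaged 12307 ± 3936 (SD, n = 5). On the log2 scale this was a fold change of -0.76 (standard error 0.26, unadjusted limma p = 0.0164, adjusted p = 0.654), and the exact permutation p was 0.0317, two-sided, where the smallest possible is 0.00794. With slide as a block it was -0.18 and not called, and the call was also lost without WT 3 (-0.63) or WT 4 (-0.66).

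The neighbouring Rps21 probe A_52_P740562 read 44285, 37307, 68235 and 55328 in WT, and 30386, 32080, 32352, 40389 and 54744 in hNAG-1. Its log2 fold change was -0.43 (standard error 0.24) and was not called. Rps21 A_51_P489959, upstream and across an intron, read 182470, 117243, 147700 and 142796 in WT, and 179608, 114284, 135393, 141921 and 134495 in hNAG-1. Its genotypes overlapped over nearly their whole range, and the log2 difference was -0.06 (standard error 0.18). The slide 2 arrays were the lowest with A_52_P678800 and lay across the WT range or just under it with the upstream probe.

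The pair of Rpl7a probes that share 14 bases differed in the same way. A_52_P548790, the one nearer the 3′ end, read 56453, 48422, 85110 and 76857 in WT, and 35971, 41206, 44366, 47652 and 76662 in hNAG-1. Its neighbour A_52_P436206 read 540331, 315944, 436924 and 416093 in WT, and 552632, 393507, 419425, 480060 and 421279 in hNAG-1. The slide 2 arrays were the lowest with the first probe and spread through the WT range or above it with the second. Their log2 fold changes were -0.46 (standard error 0.26) and 0.10 (standard error 0.19), and neither was called by limma.

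The upstream Rpl7a probe A_51_P359862 read 69382, 62336, 79667 and 75140 in WT, and 79878, 80710, 77747, 81586 and 79892 in hNAG-1. The hNAG-1 values lay close together, 4 of them above all WT arrays and hNAG-1 3 within the WT range. Its log2 fold change was 0.16 (standard error 0.13), with a limma p of 0.227 and an exact permutation p of 0.0159, and it was 0.01 without scaling. By the exact permutation test 3 of 132 RP probes had an unadjusted p under 0.05 (2.27%), against 4.55% of all probes. The others were the Rps21 probe above and Rps2 A_52_P277592, with a log2 fold change of 0.14 (-0.01 without scaling).

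In Rps3a, the A_51_P292357 probe read 44606, 36155, 45514 and 43494 in WT, and 31225, 29662, 29462, 36962 and 44519 in hNAG-1. The A_52_P49886 probe read 126290, 95240, 101101 and 97950 in WT, and 125444, 94783, 94192, 121303 and 106394 in hNAG-1. With the first probe hNAG-1 1 to hNAG-1 3 were the lowest arrays and hNAG-1 5 was level with WT, whereas the second probe showed overlap throughout. The first differed by -0.32 (standard error 0.17) and the second by 0.04 (standard error 0.16) on the log2 scale, and neither was called. Whether RNA integrity, labeling or the probes themselves had a part in these differences between probes of the same gene was not tested.

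**Figure D4:**
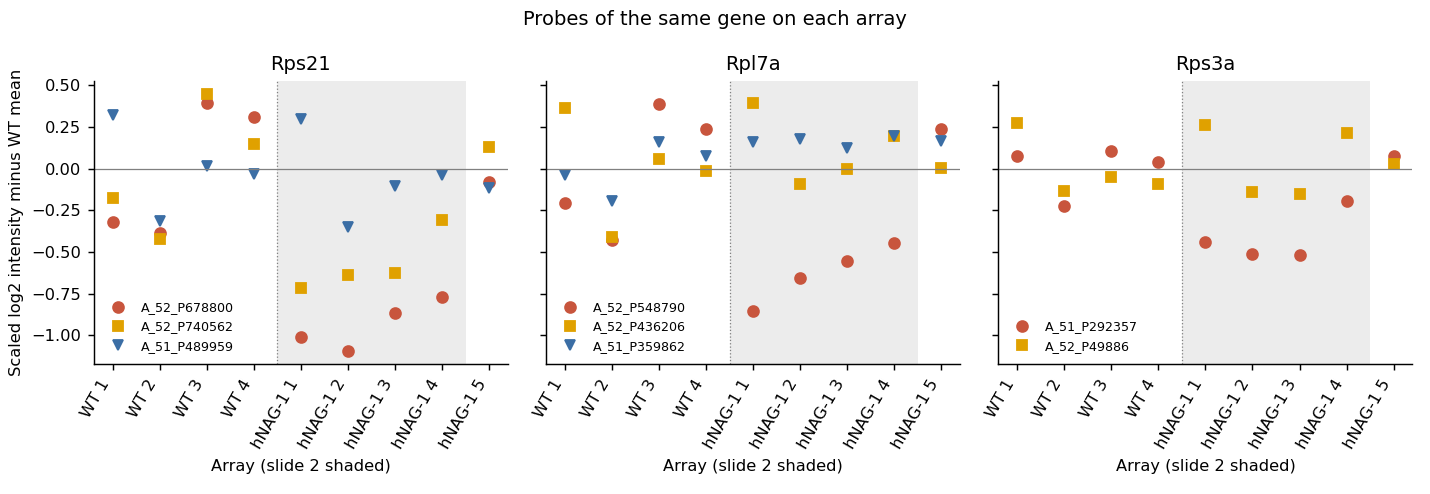
Scaled log2 intensity minus the WT mean of the probe (y axis) is shown for every probe of Rps21, Rpl7a and Rps3a on each of the 9 arrays (x axis), with slide 2 shaded. The lowest probe of each gene is low on slide 2, below all WT arrays on all 4 for Rps21 and Rpl7a and on 3 of 4 for Rps3a, and lies in the WT range on hNAG-1 5. Rps21 A_51_P489959, Rpl7a A_52_P436206 and Rps3a A_52_P49886 stay in or near the WT range. Of all well measured probes of the array, 3.72% had all 4 slide 2 arrays below all WT arrays.

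Most genes with several probes gave like values. Of the 35 genes with at least 2 probes well above background on all arrays, 27 had probes within 0.2 of each other in log2 fold change, and the median distance was 0.10. All 3 probes of Rps28, a small subunit protein, lay between -0.05 and -0.04. The 3 probes of Rpl7, a large subunit protein, lay between 0.05 and 0.09. The widest distances were those of Rps21 (0.70) and Rpl7a (0.62).

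The 5 lowest of the well measured RP probes were the Rps21 pair, Rpl7a A_52_P548790, Rps3a A_51_P292357 and Rpl30 A_51_P268914, a large subunit protein with a log2 fold change of -0.31. Each of the 5 had hNAG-1 5 within the WT range. All 4 slide 2 arrays lay below all WT arrays in 2 of the 124 well measured RP probes, against 3.72% of all well measured probes. The 5 probes were picked for the lowest hNAG-1 minus WT values, and slide 2 held hNAG-1 arrays only. Low values on slide 2, and a rise with slide as a block, are thus partly built into the choice. On slide 2 the 5 probes were lower than on the other 5 arrays by values from -0.43 to -0.92 on the log2 scale. With slide as a block, 4 of them were above 0. These probes held 30% to 38.3% G and C bases, where the median RP probe held 45%. The other 18 RP probes of at most 38.3% had log2 fold changes from -0.27 to 0.43, with a median of -0.05. Across the 124 probes the log2 fold change rose with G and C content (Spearman's rho 0.37, a description over probes on the same arrays), and without the 5 lowest rho was 0.30. Over the 23095 well measured probes of the array it was 0.10.

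**Figure D5:**
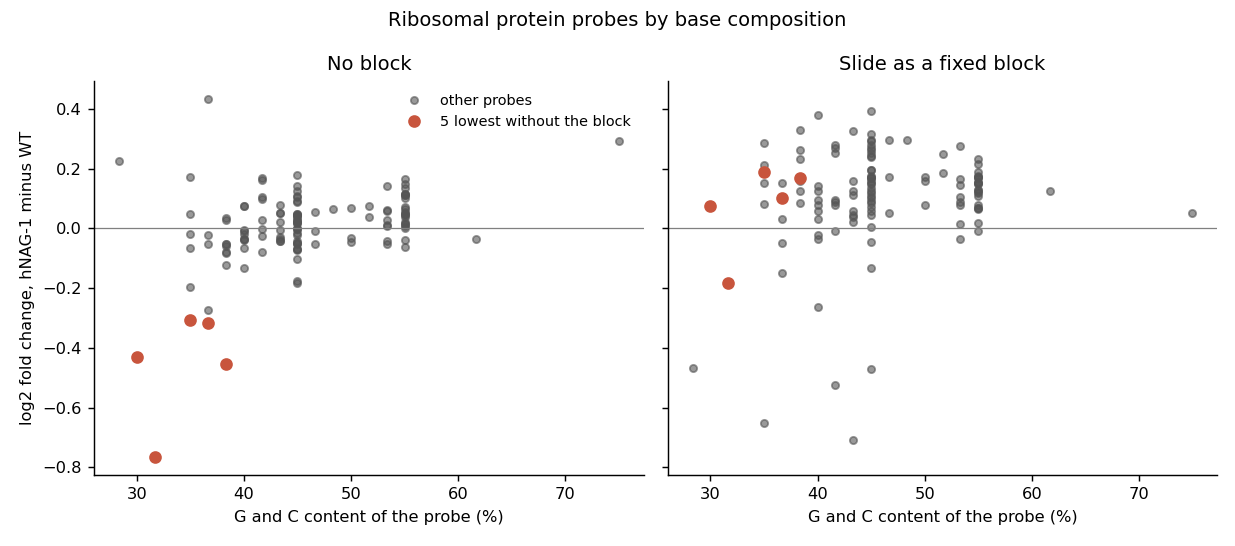
The log2 fold change (hNAG-1 minus WT, y axis) of the 124 well measured RP probes is plotted against the share of G and C bases in the probe (x axis), without a block (left) and with slide as a fixed block (right). The 5 lowest probes of the left panel (red, at 30% to 38.3%) lie between -0.18 and 0.19 in the right panel. They were picked on the left panel, so that a move toward 0 on the right is partly built into the choice.

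At the other end, the 5 highest well measured probes were Rps12 A_52_P415440, Rpl21 A_52_P258959, Rpl13 A_52_P103513, Rpl4 A_52_P376829 and Rpl7l1 A_52_P343343, and none was called. The Rps12 probe, for a small subunit protein, read 270, 318, 447 and 434 in WT, and 559, 660, 384, 531 and 356 in hNAG-1. Its genotypes overlapped, and its log2 fold change was 0.43 (standard error 0.24) and -0.15 with slide as a block. The other Rps12 probe was at -0.04 and far brighter, with a mean scaled log2 intensity of 18.2 against 8.73. The Rpl13 probe was also dim, at 8.42 against 16.7 and 17.4 for the other Rpl13 probes. Its log2 fold change was 0.23, and -0.47 with slide as a block, whereas the brighter Rpl13 probes were at 0.01 and -0.05. The Rpl21 probe had 0.29 (standard error 0.26), and this rested on hNAG-1 1, which read 15841 against 7018 to 8266 on the other hNAG-1 arrays.

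The stalk proteins bind the GTPase center of the large subunit. Rplp0, its base, read 33970, 30625, 30186 and 31033 in WT, and 36139, 32086, 33236, 39034 and 33903 in hNAG-1. The hNAG-1 1 and hNAG-1 4 arrays were above all WT arrays, the other 3 lay within the WT range, and the log2 fold change was 0.15 (95% confidence interval -0.14 to 0.43). Rplp1 had -0.02 (-0.47 to 0.43) and Rplp2 had -0.01 (-0.37 to 0.35), each with overlapping genotypes.

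Rpl5 and Rpl11 form a particle with 5S rRNA and bind Mdm2 when ribosome assembly is disturbed. Rpl5 had a log2 fold change of 0.10 (95% confidence interval -0.24 to 0.44). The brighter Rpl11 probe, A_51_P394524, had -0.01 (-0.43 to 0.41), and the dimmer A_52_P566208 had -0.04 (-0.62 to 0.53). Rps6 A_51_P344734, whose values are given above, had -0.00 (-0.29 to 0.29) and only hNAG-1 4 above the WT range.

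Several RP genes serve as references in PCR. Rpl13a read 68954, 60512, 63591 and 62168 in WT, and 74758, 53442, 65292, 67391 and 66058 in hNAG-1, with the highest and the lowest array both in hNAG-1. Its log2 fold change was 0.03 (95% confidence interval -0.29 to 0.34) after scaling and -0.12 as deposited. The Rpl19 probes had 0.08 and 0.11, Rpl32 had 0.03, Rps16 had 0.02, and the 3 Rps18 probes had -0.10, 0.01 and 0.05. The widest of these intervals was that of Rps18 A_51_P287677, -0.43 to 0.45.

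Paralogues of RP genes take the place of the common protein in some tissues. Rpl3l, the form of Rpl3 found in heart and skeletal muscle, read 53.5, 113, 83.1 and 331 in WT, and 62.7, 17.7, 75.7, 66.8 and 77.3 in hNAG-1. WT 4 was the highest array and hNAG-1 2 the lowest, and the probe was well above background on 4 of the 5 hNAG-1 arrays. The log2 fold change was -1.09 (standard error 0.59, exact permutation p = 0.159), whereas Rpl3 had 0.14 (standard error 0.13). Rpl22 had -0.04 and -0.02 and the brighter probe of Rpl22l1 -0.12. The dimmer Rpl22l1 probe, well above background on 7 arrays, had -0.70 (standard error 0.54), and 0.83 with slide as a block. Rps27 had -0.03 and Rps27l, a p53 target, 0.10. Rpl7l1 had 0.17 with both probes, Rpl10 had -0.07 and 0.07, and Rpl39 had -0.27 (standard error 0.22). None was called.

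The 8 probes that were not well above background on every array stood beside brighter probes of the same gene, except for Rpl3l. Rps19 A_52_P129131 and Rps2 A_52_P182478 were not well above background on any array. Rpl37 A_51_P206665, Rps15a A_52_P491433, Rps6 A_52_P531325, Rpl22l1 A_52_P65897 and Rpl35a A_52_P369054 were measured on some arrays.

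RefSeq promoters of build GRCm38.p6 were available for 58 of the 79 genes (69 of 32851 promoters, each 300 bases). An unbroken run of at least 8 pyrimidines lay within 15 bases of the start in 37.7% of the RP promoters and in 12.0% of all promoters. The letters CTTTC stood on the sense strand in the same window in 23.2% of RP and 4.05% of all promoters. The letters CCGGAAG, the core of sites for ETS factors, stood on either strand of the 300 bases in 33.3% and 8.86%, and TATAAA in 10.1% and 13.6%. The windows below run from 15 bases before to 15 bases after the start and are shown for 6 of the genes described above, with the longest pyrimidine run in capitals.

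Rpl7a: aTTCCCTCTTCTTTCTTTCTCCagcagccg
Rplp2: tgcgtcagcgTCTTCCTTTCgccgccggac
Rps6: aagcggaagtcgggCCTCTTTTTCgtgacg
Rpl13a: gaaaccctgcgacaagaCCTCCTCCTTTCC
Rps16: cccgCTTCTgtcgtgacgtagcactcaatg
Rps21 (first start): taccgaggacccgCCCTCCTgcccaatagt
Rps21 (second start): ggacaagtgagcaggtaggCCTCggtgcgg

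The runs of Rps16 and of both Rps21 starts are shorter than 8 bases.

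Other genes of the ribosome and of translation were taken from lists, each gene by its brightest probe. Among RPs whose symbols do not follow the name pattern, Rpsa had a log2 fold change of 0.05, Fau -0.05, Rpl36al 0.07 and Rack1 0.01, and none was called. The 75 mitochondrial RPs, which build the separate ribosome of the mitochondrion, had a median of 0.10, and limma called none at an unadjusted p under 0.05. The 37 translation factors had a median of 0.13 with 1 called higher by limma, and the 49 ribosome biogenesis genes had 0.18 with 1 called higher. The 16 regulators of RP mRNA translation had 0.19 with 1 called higher. By the exact permutation test 7 mitochondrial RPs, 4 translation factors, 2 biogenesis genes and 1 regulator had an unadjusted p under 0.05, all higher in hNAG-1, where 1.94% of all probes were, and without scaling none of them did. By limma these 5 lists held no gene called lower, against 1.2% of all probes called higher and 4.42% called lower, and no gene passed an adjusted p of 0.05 (limma with Benjamini-Hochberg adjustment, lowest adjusted p = 0.654). The 14 reference genes that are not RPs had a median of 0.02, and none was called. As deposited, without scaling, the medians of the mitochondrial, translation factor, biogenesis and regulator lists were -0.05, -0.02, 0.03 and 0.04, and with slide as a block 0.24, 0.19, -0.15 and 0.10.

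The called translation factor was Eef2, which moves the ribosome along the mRNA. It read 33781, 34825, 29730 and 33273 in WT, and 36135, 45551, 43894, 40335 and 39950 in hNAG-1. All hNAG-1 arrays lay above all WT arrays. The log2 fold change was 0.32 (standard error 0.13, called by limma, exact permutation p = 0.0159), and 0.30, no longer called, with slide as a block. Genotypes also did not overlap, with hNAG-1 higher, in the translation factor Eif3i (0.22, exact permutation p = 0.00794, the smallest possible) and the mitochondrial RPs Mrpl4 (0.25) and Mrps7 (0.29), which limma did not call. These came from 37 translation factors and 75 mitochondrial RPs, and 0.695% of all probes on the array were higher without overlap. Without scaling the log2 fold changes were 0.17 for Eef2, 0.07 for Eif3i, 0.10 for Mrpl4 and 0.14 for Mrps7. Imp4, a processing factor of the small subunit, had 0.47 (standard error 0.20), and Ddit4, an inhibitor of mTOR complex 1, had 0.44 (standard error 0.19). Both overlapped between genotypes. None of Eef2, Imp4 and Ddit4 was called without scaling, with slide as a block, or without WT 3, WT 4, hNAG-1 2 or hNAG-1 3. The lowest regulator was Myc at -0.29, the lowest biogenesis gene Npm1 at -0.15, the lowest mitochondrial RP Mrpl49 at -0.11 and the lowest translation factor Eef1a1 at -0.10, and limma called none of them. With slide as a block Myc, a transcription factor that drives ribosome production, was at -0.85 and was the single gene of these lists called, on hNAG-1 5 alone against WT 2 to WT 4, where 0.712% of all probes were called lower.

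In whole glands, fewer cells of a type and less RNA per cell cannot be told apart. All 8 markers of milk-secreting epithelium were well above background on all arrays, and their summed scaled intensity ranged from 1132010 to 2071110 in WT and from 1467400 to 2155330 in hNAG-1. The sum of the 5 B cell markers ranged from 975 to 25971 in WT and from 620 to 3962 in hNAG-1, and that of the 5 T cell markers from 563 to 10231 and from 435 to 1545. Both were highest on WT 2, where the scaled RP median was the lowest of the WT arrays. Without WT 2 the RP median log2 fold change was -0.07 and that of all probes -0.04. The B cell marker Cr2 was called lower (-0.75), and no other marker was called. With slide as a block Cr2 was at 0.22 and not called. The median log2 fold change was 0.10 over the epithelial markers, 0.35 over 4 markers of myoepithelium, 0.45 over 7 of adipocytes, -1.14 over the B cell and -1.16 over the T cell markers, -0.00 over 3 of macrophages and 0.16 over 3 of endothelium. The part of lymphocytes in the RP levels was not tested.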

How the data were processed

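Total RNA of 9 mammary glands was labelled with Cy3 and hybridized to Agilent whole mouse genome arrays of 60-base probes. The deposited values are scanner intensity values after Agilent's background correction, made by the authors with Feature Extraction (version 9.5.3.1 per the file headers, 9.5 in the submitters' processing notes), and carry no scaling between arrays. The value table of the series was identical to them.

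Control spots were left out, and features of 1 probe were averaged. Each array's log2 intensity was centred on its 75th percentile; printed scaled intensities return to a 75th percentile of 760. Genotypes were compared with limma 3.58.1 in R 4.3.3 over all 41174 probes of the 9 arrays, without covariates, with Benjamini-Hochberg adjustment, and single probes with a two-sided exact permutation test (126 splits). Precision is limited by the number of arrays. The script was tested on simulated data. Well above background is the scanner's own call. Error of a fold change is limma's standard error or 95% confidence interval.

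The members and gene lists were chosen with earlier results of these data known. Named probes were the 5 highest and 5 lowest of the well measured RP probes, all probes of genes with at least 3 probes, paralogues, stalk proteins, Rpl5, Rpl11, Rps6, PCR reference genes, and probes that passed a test. Of the 132 probes, 110 matched a RefSeq accession, and array symbols were kept. Values of some single genes are not reported here. Alternatives were no, median, quantile or RP-median scaling, normexp, a floor of 20, filters, other tests, slide and replicate blocks, and leaving out each array. Replicate numbers did not pair the samples: deviations of same-numbered arrays correlated at 0.08, -0.17, -0.06 and -0.21.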

Additional observations from a re-analysis of the deposited data

Results flagged for a closer look

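Among 146 sets of values (the 71 named RP probes and the RP level before and after scaling, within each genotype), 5 held an array far from the others, and chance flags about 1 in 20 such sets. Rpl21 A_52_P258959 read 15841 on hNAG-1 1 and 7018 to 8266 on the other hNAG-1 arrays. Rps19 A_52_P404955 read 110961 on WT 1 and 74490 to 78668 on the other WT arrays. Rps19 A_51_P337290 read 8860 on WT 3 and 8360 to 8435 on the other WT arrays. Rpl3l A_51_P243123, the muscle form of Rpl3, read 17.7 on hNAG-1 2 and 62.7 to 77.3 on the other hNAG-1 arrays. Rpl35a A_52_P369054 read 45.3 on hNAG-1 5, the only array where it was well above background, and 15.8 to 21.4 on the other hNAG-1 arrays.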

How the results depend on the processing

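The median log2 fold change of the RP probes stayed within the spread of the RP array medians within a genotype (0.22) of its value of 0.01 under all alternatives run, from -0.14 without scaling to 0.22 with median scaling, which moved the median of all probes to 0.20. It lay between -0.07 and 0.09 when each array was left out. No RP probe passed an adjusted p of 0.05 under any alternative (limma, lowest adjusted p = 0.0858). The number of RP probes called at an unadjusted p under 0.05 was 1, and it became 5 with quantile normalization (3.79%, against 6.36% of all probes), 4 with a floor of 20 (3.03%, against 4.9%), 3 with the methods' t-test (2.27%, against 4.87%), 6 with array weights (4.55%, against 15.2%), 2 (1.52%) with slide as a fixed block (against 7.58%), on slide 3 alone (8.99%) and with no scaling and slide as a block (6.55%, added after seeing the data) and 0 with the brightest probe of a gene. It was 0 to 7 when an array was left out, with 0 without WT 3 or WT 4 and 2, 3 and 7 without WT 1, WT 2 and hNAG-1 5 (5.3% in the last case, against 14.4%). With the replicate number as a block, 4 RP probes were called (3.03%, against 13.1%). By the exact permutation test 3 RP probes were called (2.27%, against 4.55% of all probes), 1 without scaling (0.758%, against 2.84%), 15 with median scaling (11.4%, against 8.21%) and 10 with quantile normalization (7.58%, against 5.58%).

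Other ribosome and translation genes numbered 182, of which 3 were called (where 5.62% of all probes were called). The 3 became 17 with median scaling (8.76% of all probes) or a floor of 20 (4.9%), 16 with the methods' t-test (4.87%) and 8 with array weights (15.2%). They became 6 with a trended robust fit (5.66%), 5 without dim probes (7.23%) and 0 without scaling (5.02%) or with RP-median scaling (5.32%). The number was 1 with quantile normalization (6.36%), with slide as a random block (3.64%) and with the replicate block (13.1%), and 0 to 5 when an array was left out. These alternatives for the other genes and for the exact test were added after seeing the data. The cause of these changes was not tested. Over 71 named probes and all alternatives, 277 of 1913 values had the other sign, none of them for the probe called by limma. Rps2 A_52_P277592, called by the exact test, was at -0.01 without scaling. Dim RP probes are limited by signal over background: 8 were not well above it on every array.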
